A study of Mus musculus with 203 samples.

Results

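The receptor genes for a set of pressor and fluid-balance peptides were followed through the nucleus ambiguus of the newborn mouse, the brainstem column of motor neurons that slow the heart and move the larynx. They were chosen by name as the receptors for angiotensin II (Agtr1a, Agtr1b, Agtr2), for vasopressin and oxytocin (Avpr1a, Avpr1b, Avpr2, Oxtr) and for the endothelins (Ednra, Ednrb), and make up 9 of the 24029 genes of the count table. Each sample was 1 neuron, read by Smart-seq2, a full-length method that carries no molecular identifiers. All neurons came from wild type mice at postnatal days 2 to 4, of the strain given as C57BL/6 in the labels and as C57BL/6NCrl in the study's methods. They had been labeled from their target by fluorescent cholera toxin B, injected either at the heart, in the space under the pericardium, or at the cricothyroid muscle of the larynx, and were drawn one by one into glass pipettes from live slices. The authors' annotation calls 53 heart-labeled neurons ACP (ambiguus cardiopulmonary), 98 heart-labeled neurons ACV (ambiguus cardiovascular) and 52 neurons Larynx.

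The 3 hormone systems are best known for setting blood pressure and fluid balance. Angiotensin II is cut from angiotensinogen by renin and then by angiotensin converting enzyme, and raises blood pressure largely through the type 1 receptor, which rodents encode in a pair of genes, Agtr1a and Agtr1b. The type 2 receptor, Agtr2, often opposes it and is best known from the fetus and the newborn. Vasopressin acts on vessels and brain through the V1a receptor (Avpr1a), on the pituitary through V1b (Avpr1b) and on the kidney through V2 (Avpr2), and the closely related oxytocin acts through Oxtr. Endothelins, made by vessels and many other cells, act on smooth muscle through the A receptor (Ednra), while the B receptor (Ednrb) is abundant in endothelium and in astrocytes and other glia.

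The labels name no mouse, dish or plate for a neuron, so each type counted as 1 sample, no significance test was made and no p-value is given. Shares of neurons carry exact (Clopper-Pearson) 95% binomial intervals, which cover counting error only, and an SD is the spread between neurons of a type. ACP and ACV neurons were told apart by the authors from these same counts, so that differences between them are not independent of the grouping, while Larynx neurons came from other injections. Levels are read counts per 10000 counts of the neuron outside Rn45s, a ribosomal RNA gene that took a median of 34.3% of the counts in ACP, 35.8% in ACV and 58.6% in Larynx neurons. The counts outside it had a median of 1115375 counts in ACP, 1120512 in ACV and 560892 in Larynx neurons. Neurons of all types held the vesicular acetylcholine transporter Slc18a3 in 100% of cells. The study's markers were each most frequent in their own type, with Calb1 in 77.4% of ACP, Bche in 89.8% of ACV and Calca in 96.2% of Larynx neurons. Genes of other cells were present as well. Apoe, a glial gene for which the study's methods state a limit of 1800 counts, exceeded that number in 11 ACP and 28 ACV neurons and in 0 Larynx neurons of the deposited table.

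Agtr1a and Agtr1b are close copies, so whether their reads could be told apart bears on every value given for them. Agtr1a lies at chr13:30336441-30382867 on the plus strand of GRCm38 (mm10) and Agtr1b at chr3:20314473-20367177 on the minus strand. By the GENCODE vM21 transcripts, both coding sequences are 1077 bases long and align without a gap, with 90.8% of bases identical. Of the 1003 aligned windows of 75 bases, the length of a read, 0 were identical between the copies, and the median window differed at 6 bases. The window that differed least had 1 difference and the window that differed most had 18. Both are printed from 5′ to 3′ on the strand of the gene, with the differing bases in capitals. The least differing window begins at coding position 60 (chr13:30381013-30381087, plus strand, and chr3:20316307-20316381, minus strand).
Agtr1a: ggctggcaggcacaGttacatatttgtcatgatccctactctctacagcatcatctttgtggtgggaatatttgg
Agtr1b: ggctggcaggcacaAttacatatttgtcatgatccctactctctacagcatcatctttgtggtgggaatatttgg
The most differing window ends at coding position 1054, near the end of the receptor (chr13:30381933-30382007 and chr3:20315387-20315461, same strands).
Agtr1a: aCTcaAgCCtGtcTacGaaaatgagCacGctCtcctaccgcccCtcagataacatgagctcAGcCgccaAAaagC
Agtr1b: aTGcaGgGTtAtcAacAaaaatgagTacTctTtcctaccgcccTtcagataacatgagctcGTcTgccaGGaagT
Windows with at most 3 differences made up 18.1% of the aligned windows. That figure covers the coding sequence only. Over the whole transcripts, 0 of 2997 stretches of 75 bases of Agtr1a and 0 of 2136 of Agtr1b were identical to one of another gene. How the authors' counting treated reads with few differences is not given in the sources used here. How far the values of either copy are affected is therefore not known. Among all other receptors, only Avpr2 and Ednra had 75-base stretches in common with a transcript of another gene. For Ednra that was 0.389% of its stretches. For Avpr2 it was 68.7%, since its exons overlap those of Arhgap4 on the opposite strand over 81.3% of their length, and reads from there can be lost or assigned to the other gene.

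The receptors fell into a frequent one, Ednrb, a group seen in a minority of neurons, and a pair close to absent. In ACP neurons 6 of the 9 genes had a read in at least 10% of neurons, in ACV neurons 4 and in Larynx neurons 6. That share of genes did not stand apart from the table, where 53.4%, 53.3% and 52.1% of all genes passed the same minimum. Ednrb was read in 58.5% of ACP neurons (95% interval 44.1% to 71.9%), 65.3% of ACV neurons (55% to 74.6%) and 50% of Larynx neurons (35.8% to 64.2%), and was the most frequent receptor in each type. The next most frequent was Agtr1b in ACP and Larynx neurons but Oxtr in ACV neurons.

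**Figure D1:**
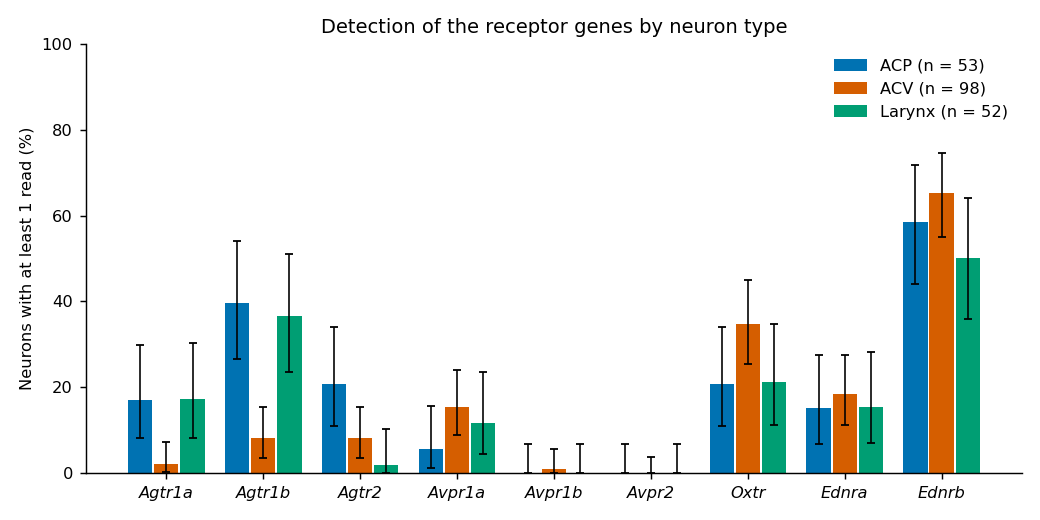
Share of neurons with at least 1 read of each receptor gene (y axis, percent) in ACP, ACV and Larynx neurons, with exact 95% binomial intervals as error bars that cover counting error only. Agtr1a and Agtr1b were read in 2.04% and 8.16% of ACV neurons, against 17% and 39.6% of ACP neurons, while Avpr2 was read in no neuron.

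The angiotensin receptors differed most between the types. At least 1 of Agtr1a, Agtr1b and Agtr2 was read in 60.4% of ACP neurons (46% to 73.5%) and 44.2% of Larynx neurons (30.5% to 58.7%), but in 18.4% of ACV neurons (11.3% to 27.5%). The ACP and Larynx intervals overlapped, and neither overlapped that of ACV. A gene was called different when the ratio of mean levels passed 2, for genes that reached a share of 10% in one or both types. Between ACP and ACV neurons 3 of the 7 receptors that could be called passed, Agtr1a, Agtr1b and Agtr2, all higher in ACP. Over all 13356 genes so called, 9.87% were higher in ACP and 8.63% higher in ACV (18.5% in either direction). Agtr1a, Agtr1b and Agtr2 entered that count only through the ACP neurons, in which they are more frequent, so the minimum share favored that direction and the count of 3 is a description.

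Agtr1b was the receptor with the clearest split. Among its selected genes the study lists Agtr1b as enriched in ACP over ACV, and marks it as not expressed in the laryngeal neurons. No threshold for that mark is given in the sources used here. In the deposited counts, reads of Agtr1b were found in 21 of 53 ACP neurons (39.6%, interval 26.5% to 54%), in 8 of 98 ACV neurons (8.16%, 3.59% to 15.5%) and in 19 of 52 Larynx neurons (36.5%, 23.6% to 51%). In those ACP neurons the level ran from 0.0287 to 2.96 counts per 10000 with a median of 0.197, and in the Larynx neurons from 0.0110 to 4.29 with a median of 0.212. The 8 ACV neurons held 1, 2, 6, 7, 9, 11, 16 and 38 reads, at levels up to 0.214, so that the highest ACV neuron stood close to the median of the ACP and Larynx neurons with reads. Over all neurons the mean level was 0.160 ± 0.438 (SD, 53 neurons) in ACP, 0.00650 ± 0.0284 (98 neurons) in ACV and 0.231 ± 0.660 (52 neurons) in Larynx. The order was thus Larynx, ACP, ACV, with the first pair not firmly separated: their ratio of 1.44 moved between 0.945 and 2.18 as single neurons were left out in turn. In neurons with at most 900 or 1800 counts of Apoe, ACP stood at 0.308 and 0.452 times Larynx, both past 2-fold. ACP exceeded ACV 24.6-fold (16.3 to 36.6 with each neuron left out in turn) and Larynx exceeded ACV 35.5-fold (23.2 to 52.9). The pooled reads gave 20.9-fold (16.9 to 26.2 by counting error) and 27.8-fold (22.3 to 35). After each neuron with at least 200000 counts was thinned to that number, the expected shares were 34.8%, 5.51% and 33.5%. These shares covered 53 ACP, 98 ACV and 49 Larynx neurons. Agtr1b levels did not follow those of astrocyte marker genes across all neurons (Spearman rho -0.04). In neurons with at most 900 counts of Apoe the fold of ACP over ACV was 17.9.

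Agtr1a, the main type 1 receptor of the rodent kidney and vessels, was rarer but lay in the same types. It was read in 9 ACP neurons (17%, 8.07% to 29.8%), 2 ACV neurons (2.04%, 0.248% to 7.18%) and 9 Larynx neurons (17.3%, 8.23% to 30.3%). The ACP neurons held a lowest count of 1 read and a median of 31, with 5 neurons at 20 or more and a highest level of 0.921 counts per 10000. The ACV neurons held 1 and 20 reads, and the Larynx neurons 1, 1, 2, 3, 3, 5, 16, 17 and 50. ACP neurons with Agtr1a often held many reads, whereas most Larynx neurons with Agtr1a, from a type of lower depth, held a handful and only 4 had 5 or more. In levels, the median of the neurons with reads was 0.358 in ACP and 0.0372 in Larynx. The Larynx neurons with 16, 17 and 50 reads stood at 0.613, 0.460 and 0.517, within the ACP range. The mean level was 0.0607 ± 0.185 in ACP, 0.00586 ± 0.0569 in ACV and 0.0338 ± 0.125 in Larynx neurons. ACP exceeded ACV 10.4-fold, but the size hung on the ACV neuron with 20 of the 21 reads: without it the ratio was 516, and leaving out any other neuron gave no less than 7.53. Larynx exceeded ACV 5.78-fold (3.84 to 288, the upper value again without that neuron). The ratio of ACP to Larynx was 1.79, short of 2-fold, but it passed 2-fold by TMM scaling (2.01), by pooled counts (2.2) and with Rn45s counted (2.88), and ranged from 1.30 to 2.7 as single neurons were left out. In neurons with at most 900 counts of Apoe it turned to 0.851, so the order of these types is not settled. In the same neurons ACP over ACV stood at 2.12 and ACV at 0.402 times Larynx.

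Both type 1 copies were read together in 9 neurons, 4 of them ACP, 5 Larynx and 0 ACV, while 11 neurons held Agtr1a alone and 39 Agtr1b alone. With at least 1 copy counted, the type 1 receptor was present in 49.1% of ACP neurons (35.1% to 63.2%), 10.2% of ACV neurons (5% to 18%) and 44.2% of Larynx neurons (30.5% to 58.7%). The Larynx share is the same as for all 3 angiotensin receptors, since the single Larynx neuron with Agtr2 also held Agtr1b. Per kilobase of exon, a scale on which genes of different length can be compared, Agtr1b stood above Agtr1a in all 3 types, at 0.0744 against 0.0218 counts per 10000 per kilobase in ACP, 0.00303 against 0.0021 in ACV and 0.107 against 0.0121 in Larynx neurons.

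Agtr2, a gene of the X chromosome (chrX:21484544-21489164, plus strand), was read mainly in the heart-labeled neurons. It was read in 11 ACP neurons (20.8%, 10.8% to 34.1%), 8 ACV neurons (8.16%, 3.59% to 15.5%) and 1 Larynx neuron (1.92%, 0.0487% to 10.3%). The ACP neurons held from 1 read upward with a median of 76, at levels up to 2.53 counts per 10000, and the ACV neurons held 1, 13, 23, 37, 59, 59, 70 and 93, whereas the Larynx neuron held 5. Where it was read in cardiac neurons the gene was mostly well above the threshold of detection, with 20 or more reads in 8 ACP and 6 ACV neurons. The mean level fell in the order ACP (0.147 ± 0.431), ACV (0.0241 ± 0.0962), Larynx (0.000847 ± 0.00611). ACP exceeded ACV 6.09-fold (4.19 to 7.78 with each neuron left out in turn, and 3.103 in neurons with at most 900 counts of Apoe) and Larynx 173.1-fold, the last resting on 5 reads of 1 Larynx neuron. By pooled reads the fold over Larynx was 79, with a counting interval of 33.7 to 244. The ACP and ACV intervals of the share overlapped, as did those of ACV and Larynx, while those of ACP and Larynx did not. Against Larynx, Agtr2 was past 2-fold higher in ACP, as were 10.3% of the 13256 genes that could be called (22.8% in either direction). It entered that comparison only through the ACP neurons, so this call is a description. Of the 20 neurons with Agtr2, 2 held Agtr1a (10%, against 9.84% of those without Agtr2). Agtr1b was held by 4 (20%, against 24% of those without). These shares pool types that differ in both genes. Within ACP, Agtr1b was read in 27.3% of neurons with Agtr2 and 42.9% of those without, and within ACV in 0% and 8.89%. For Agtr1a these shares were 18.2% and 16.7% in ACP and 0% and 2.22% in ACV. With so few Agtr2 neurons they are descriptions.

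**Figure D2:**
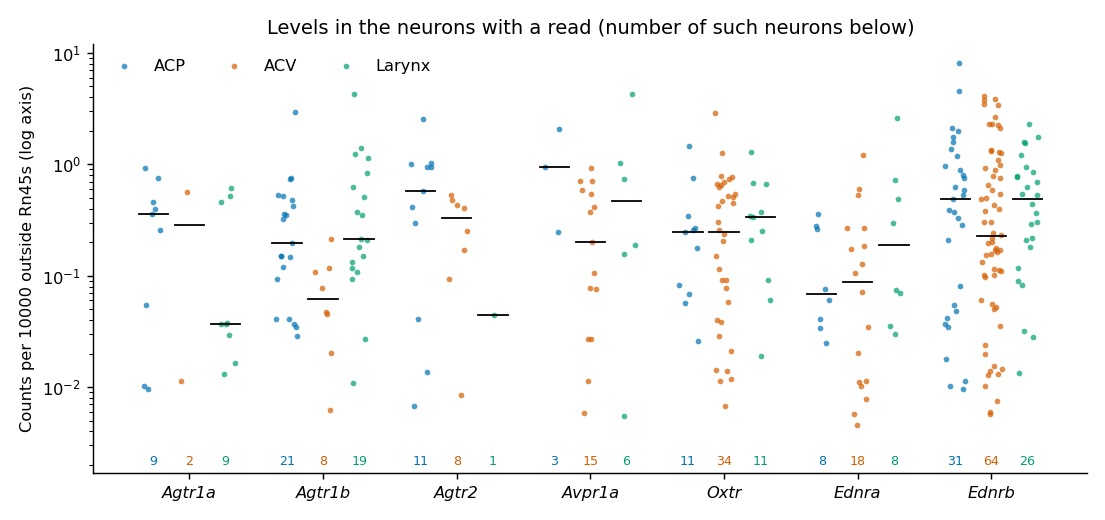
Level of each receptor gene in the neurons that had a read (y axis, counts per 10000 outside Rn45s, log axis), by type, with the median as a black line and the number of such neurons at the foot. Avpr1b and Avpr2 are left out, and Agtr2 has a single Larynx neuron at 0.0441, below most ACP and ACV neurons.

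Some genes of angiotensin processing and signaling were called between the types. Of 12 such genes 11 had a read somewhere and 7 could be called. Between ACP and ACV, Ace, Mme and Agtrap were past 2-fold higher in ACP and 0 were higher in ACV, beside 9.87% and 8.63% of all genes. Mme entered only through the ACP neurons, so the minimum share favored its direction. The median log2 ratio of the 7 was 0.50, beside 0.00 over all genes called. Agtrap, whose protein binds the type 1 receptor and draws it into the cell, was read in 52.8% of ACP neurons (38.6% to 66.7%), 18.4% of ACV neurons and 15.4% of Larynx neurons. Its mean level was 0.387 ± 0.788 in ACP, 12.3-fold above ACV (9.75 to 15.7 with each neuron left out in turn) and 6.17-fold above Larynx (4.89 to 8.45). Ace, which makes angiotensin II, was read in 62.3% of ACP, 37.8% of ACV and 57.7% of Larynx neurons. ACP exceeded ACV 3.61-fold for Ace (2.75 to 4.48), and Larynx exceeded ACV 4.96-fold (3.62 to 6.16). Mme (neprilysin), which degrades several peptides including angiotensins and endothelins, was read in 22.6%, 6.12% and 44.2%. Larynx exceeded ACV 41.2-fold for Mme (36 to 96.2) and ACP exceeded ACV 13.5-fold (8.71 to 31.5). Mme entered both comparisons only through the other type than ACV, so these folds are descriptions. Like the type 1 receptors, Ace and Mme were lowest in ACV neurons. Agtrap was not, since ACV and Larynx neurons were both low for it.

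The precursor and several partners did not pass 2-fold between any types. Agt, angiotensinogen, which astrocytes of the brainstem make, was read in 64.2%, 51% and 48.1% of ACP, ACV and Larynx neurons, at mean levels of 0.668, 0.624 and 0.646. Atp6ap2, the prorenin receptor and a part of the proton pump, was read in 98.1%, 98% and 94.2%. Lnpep, an aminopeptidase that binds angiotensin IV, was at 54.7%, 61.2% and 55.8%, and Mtus1, whose product binds the type 2 receptor, at 73.6%, 88.8% and 71.2%. Renin (Ren1) had no read in any neuron.

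Agtr1b had a neighbour that was read in many of the same neurons. Of 12905 genes with a read in at least 20 neurons, the gene most like Agtr1b across all neurons was Cpb1, a carboxypeptidase (Spearman rho 0.61), which is also the nearest protein-coding gene, 38740 bases away on the same strand. Both genes were read in 30 neurons, out of 48 with Agtr1b and 38 with Cpb1. In ACV all 6 neurons with Cpb1 were among the 8 with Agtr1b. In ACP 13 of the 14 Cpb1 neurons held Agtr1b, and in Larynx 11 of 18. Cpb1 itself was read in 26.4% of ACP, 6.12% of ACV and 34.6% of Larynx neurons. Next came Plch1, a phospholipase C, and Tacr3, the neurokinin B receptor (rho 0.39 and 0.37). Within the types, rho was 0.23 in ACP, 0.02 in ACV and 0.45 in Larynx for Plch1, and 0.04, 0.04 and 0.48 for Tacr3. For Agtr1a the closest were Hapln4 (0.41), Sds (0.38) and Nkain3 (0.37), with 20 Agtr1a neurons. For Agtr2 they were Cldn1, Erap1 and 9030617O03Rik, all at 0.34. Such correlations share each neuron's depth and are descriptions.

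**Figure D3:**
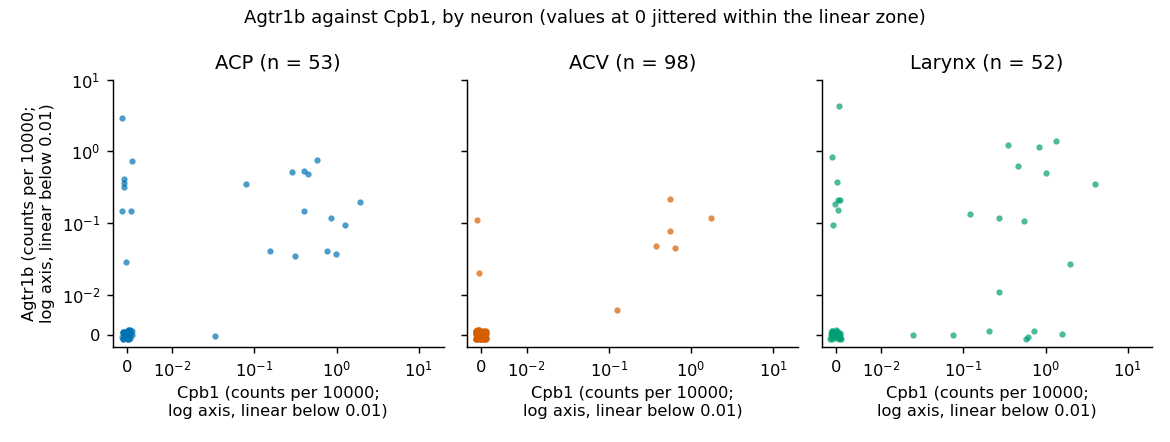
Level of Agtr1b (y axis) against Cpb1 (x axis) in each neuron, both in counts per 10000 outside Rn45s on log axes that are linear below 0.01, with values at 0 jittered. In the ACV panel 6 neurons hold both genes and 0 hold Cpb1 alone, while 7 Larynx neurons hold Cpb1 alone.

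Oxtr (chr6:112473683-112489943, minus strand) was the most frequent receptor of its family in all types and had its largest share in ACV. It was read in 11 ACP neurons (20.8%, 10.8% to 34.1%), 34 ACV neurons (34.7%, 25.4% to 45%) and 11 Larynx neurons (21.2%, 11.1% to 34.7%). The intervals overlapped. Levels in the neurons with reads spanned 0.0261 to 1.45 in ACP, 0.00681 to 2.90 in ACV and 0.0192 to 1.28 in Larynx, with medians of 0.249, 0.247 and 0.335. The mean level was 0.140 ± 0.370 in ACV, 0.0828 ± 0.229 in Larynx and 0.0704 ± 0.231 in ACP. ACV exceeded ACP 1.99-fold, just short of the 2-fold call, and between 1.59- and 3.20-fold as single neurons were left out. The call was passed by TMM and DESeq2 scaling and by pooled counts, with ACP at 0.449, 0.449 and 0.452 times ACV, and in neurons with at most 900 counts of Apoe (0.298), but not in those with at most 1800 (0.602). ACV exceeded Larynx 1.70-fold (1.35 to 2.36), and past 2-fold with Rn45s counted (2.32) and in neurons with at most 900 counts of Apoe (2.19). Neurons with Oxtr reads were the deeper ones in ACV, with a median of 1392478 counts outside Rn45s against 1034755 for those without. Thinned to 200000 counts, the shares were 18.4%, 27.9% and 20.5%. The genes most like Oxtr were BC020402 (rho 0.36), Spin2c and Taf1c (both 0.34).

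Avpr1a (chr10:122448499-122453452, plus strand) was rare and uneven. It was read in 3 ACP neurons (5.66%, 1.18% to 15.7%), 15 ACV neurons (15.3%, 8.83% to 24%) and 6 Larynx neurons (11.5%, 4.35% to 23.4%). The ACP neurons stood at 0.244, 0.948 and 2.06 counts per 10000, from 30 reads upward. The Larynx neurons held 1, 7, 15, 19, 49 and 316 reads, at levels from 0.00549 to 4.25 counts per 10000. The ACV neurons ran from 0.00586 to 0.919 counts per 10000 with a median of 0.202. A single Larynx neuron held 77.6% of the Larynx reads. Mean levels were 0.123 ± 0.610 in Larynx, 0.0614 ± 0.310 in ACP and 0.0489 ± 0.165 in ACV. Larynx exceeded ACV 2.51-fold, but 0.852-fold without that neuron, so the order of the types is not settled by these counts. In neurons with at most 900 counts of Apoe, ACP stood at 6.36 times ACV, against 1.26 in all neurons. All 6 Larynx neurons with Avpr1a also held Agtr1b, a combination singled out after its values were seen. Oxtr was read in 9 of the 15 ACV neurons with Avpr1a (60%) and in 30.1% of those without. In ACP these shares were 33.3% and 20%, and in Larynx 16.7% and 21.7%. The ACV neurons with Avpr1a were also deeper, with a median of 1533548 counts outside Rn45s against 1092374 for those without. The part of depth in this was not tested. The closest genes to Avpr1a were Il13ra1 (rho 0.34), Tmem116 and Tmx1 (both 0.29).

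The other vasopressin receptors were at or near zero. Avpr1b, the pituitary form, had 1 read in 1 ACV neuron. Avpr2, the kidney form, had 0 reads in any neuron. By a limit of 3 over the number of neurons, a share of neurons with a read of up to 5.66% in ACP, 3.06% in ACV and 5.77% in Larynx is allowed, apart from any reads lost to Arhgap4. At least 1 receptor of the family was read in 24.5% of ACP (13.8% to 38.3%), 40.8% of ACV (31% to 51.2%) and 30.8% of Larynx neurons (18.7% to 45.1%), with overlapping intervals.

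Reads of the peptides themselves were few. Avp, the vasopressin precursor, was read in 13.2% of ACP, 22.4% of ACV and 9.62% of Larynx neurons, at mean levels of 0.0165, 0.0847 and 0.0188. ACV exceeded ACP 5.14-fold (3.88 to 8.31) and Larynx 4.52-fold (3.41 to 10.1). Avp entered the comparison with Larynx only through the ACV neurons, so the latter fold is a description. Oxt was read in 5.66%, 7.14% and 5.77% of neurons and was under the 10% minimum in each type.

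Ednrb (chr14:103814625-103844402, minus strand) moved with astrocyte genes, and with genes of other non-neuronal cells, from neuron to neuron. Per kilobase of exon its level was the highest of the 9 genes in ACP (0.134 counts per 10000 per kilobase) and ACV (0.117), while in Larynx it came second at 0.0745 against 0.107 for Agtr1b. The neurons with Ednrb reads ranged from 0.00962 to 8.08 in ACP, 0.00574 to 4.12 in ACV and 0.0134 to 2.29 in Larynx, with medians of 0.487, 0.225 and 0.483. Means were 0.570 ± 1.32 in ACP, 0.498 ± 0.949 in ACV and 0.318 ± 0.532 in Larynx neurons. No pair of types was past 2-fold, the largest ratio being ACP over Larynx at 1.80 (1.34 to 2.05 with each neuron left out in turn). That ratio passed 2-fold by DESeq2 scaling (2.01) and with Rn45s counted (2.93), when ACV over Larynx passed as well (2.29). The order of types turned in neurons with at most 900 counts of Apoe, 26 ACP, 44 ACV and 38 Larynx. In these ACP stood at 0.323 times Larynx and ACV at 0.349 times Larynx. In those neurons Ednrb was read in 38.5% of ACP (20.2% to 59.4%), 47.7% of ACV (32.5% to 63.3%) and 47.4% of Larynx neurons (31% to 64.2%). In the neurons above 900 counts it was read in 77.8%, 79.6% and 57.1%. The mean level of ACP neurons was 0.0873 at or below and 1.04 above that count, and that of ACV neurons 0.0943 and 0.826. In Larynx neurons these means lay closer together, at 0.270 and 0.446.

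Astrocyte genes were read in every type. All 9 on the marker list (Gja1, Aqp4, Slc1a3, Slc1a2, Aldh1l1, Fabp7, Gfap, Aldoc and Apoe) had reads in all 3 types, and 8, 8 and 6 of them in at least 50% of ACP, ACV and Larynx neurons. Their summed level ran from 2.19 to 105.7 in ACP (median 21.96), 1.30 to 317.4 in ACV (25.1) and 10.6 to 183.98 in Larynx neurons (32.7). Aldoc, Apoe and Fabp7, read in nearly all neurons, had the highest mean levels of the 9 and so weighed most in the sum. Aldoc was highest in Larynx, at 15.7 against 9.69 in ACP and 9.83 in ACV. Gja1, Aqp4, Slc1a3, Slc1a2, Aldh1l1 and Gfap each had their lowest mean level in Larynx. Across neurons Ednrb followed the sum of the 9 genes with a Spearman rho of 0.49 in ACP, 0.56 in ACV and 0.33 in Larynx. It also followed the summed oligodendrocyte lineage genes (0.18, 0.57 and 0.31) and microglial genes (0.23, 0.33 and 0.33). Mural genes gave 0.39, 0.32 and 0.19, fibroblast genes 0.32, 0.39 and 0.16, and endothelial genes 0.34, 0.29 and 0.06. The genes most like Ednrb were S1pr1 (rho 0.55), Ptprz1 (0.51) and Apoe (0.49), all 3 known from astrocytes or their precursors. How much of the Ednrb signal came from astrocytes or other non-neuronal cells was not tested.

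**Figure D4:**
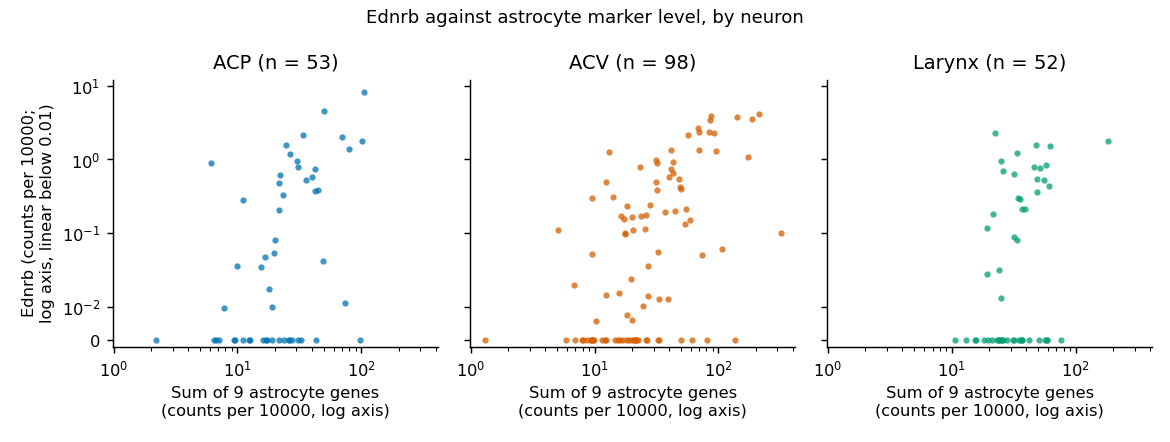
Ednrb level (y axis, counts per 10000 outside Rn45s, log axis that is linear below 0.01) against the summed level of 9 astrocyte genes (x axis, counts per 10000, log axis), 1 point per neuron. The Spearman correlation is 0.49 in ACP, 0.56 in ACV and 0.33 in Larynx, where the neuron with the highest Ednrb (2.29) has an astrocyte sum of 22.5, below the Larynx median of 32.7.

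Ednra (chr8:77663031-77724464, minus strand), the smooth muscle receptor, was read in 8 ACP neurons (15.1%, 6.75% to 27.6%), 18 ACV neurons (18.4%, 11.3% to 27.5%) and 8 Larynx neurons (15.4%, 6.88% to 28.1%), with overlapping intervals. The ACP neurons held 2, 4, 4, 6, 16, 26, 40 and 49 reads and the Larynx neurons 1, 2, 3, 5, 29, 42, 47 and, in 1 neuron, 58.1% of the 308 reads of the type, while the ACV neurons ran from 0.00456 to 1.21 counts per 10000 with a median of 0.0885. Mean levels were 0.0215 ± 0.0715 in ACP, 0.0371 ± 0.151 in ACV and 0.0836 ± 0.380 in Larynx. Larynx was past 2-fold above ACP (3.88-fold) and ACV (2.25-fold). That Larynx neuron set these sizes, and without it the values were 1.57- and 0.913-fold. In neurons with at most 1800 counts of Apoe, ACP over ACV turned from 0.581 to 2.44, past 2-fold, ACV stood at 0.126 times Larynx, and the share of ACV neurons with Ednra was 8.57%. With at most 900 counts, ACP stood at 0.864 times ACV and ACV at 0.527 times Larynx. Ednrb was read in 27 of the 34 neurons with Ednra (79.4%) and in 55.6% of those without. The genes most like it were Fcrls, a microglial gene (rho 0.39), Mmp14 and Olfml3 (both 0.37). C1qa, a microglial marker, was read in 13 of the 18 ACV neurons with Ednra and in 25 of the 80 without. All 7 microglial markers had reads in each type, none in 50% of neurons, with summed levels of 0 to 6.48 in ACP, 0 to 50.9 in ACV and 0 to 20.2 in Larynx. Mural cell markers were also all detected, with sums of 0 to 2.10, 0 to 3.08 and 0 to 2.79. Pdgfrb, a mural marker, was read in 5 of the 18 ACV neurons with Ednra and in 2 of the 80 without. In ACP these counts were 1 of 8 and 5 of 45, and in Larynx 1 of 8 and 1 of 44. Over all neurons Ednra had a rho of 0.27 with microglial, 0.21 with fibroblast, 0.17 with astrocyte and 0.14 with mural genes. The part of such cells in the Ednra reads was not tested.

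The endothelin ligands were least frequent in ACV neurons. Of the 5 genes, 4 could be called between ACP and ACV, and Edn1, Edn3 and Ece2 were past 2-fold higher in ACP, as were 9.87% of all genes. Between ACV and Larynx 4 of 5 were past 2-fold higher in Larynx, beside 14% of all genes, including Edn2, which had reads in 17.3% of Larynx and 0 of 98 ACV neurons. Edn1 and Edn3 entered both comparisons, and Edn2 the second, only through the other type than ACV. The minimum share thus favored their direction and these counts are descriptions. Edn1, the vessel endothelin, was read in 18.9% of ACP (9.44% to 32%), 1.02% of ACV and 15.4% of Larynx neurons, with 666 reads in ACP, 216 in Larynx and 4, all in 1 neuron, in ACV. Its mean in ACP was 0.0924 ± 0.276, a ratio of 196.5 to ACV. Edn3, the ligand with a preference for the B receptor, was read in 11.3%, 5.10% and 17.3%, and Larynx exceeded ACV 26-fold (19 to 46.3). Ece2, an endothelin converting enzyme, was read in 41.5%, 28.6% and 57.7% at mean levels of 0.385, 0.0175 and 0.567, so that ACP exceeded ACV 22-fold (16.2 to 34.1). Over 57.5% of its exon length Ece2 overlaps Gm49333 on the same strand, and its counts are uncertain to that extent. Ece1, the main converting enzyme, did not differ past 2-fold, with reads in 67.9%, 65.3% and 63.5%.

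**Figure D5:**
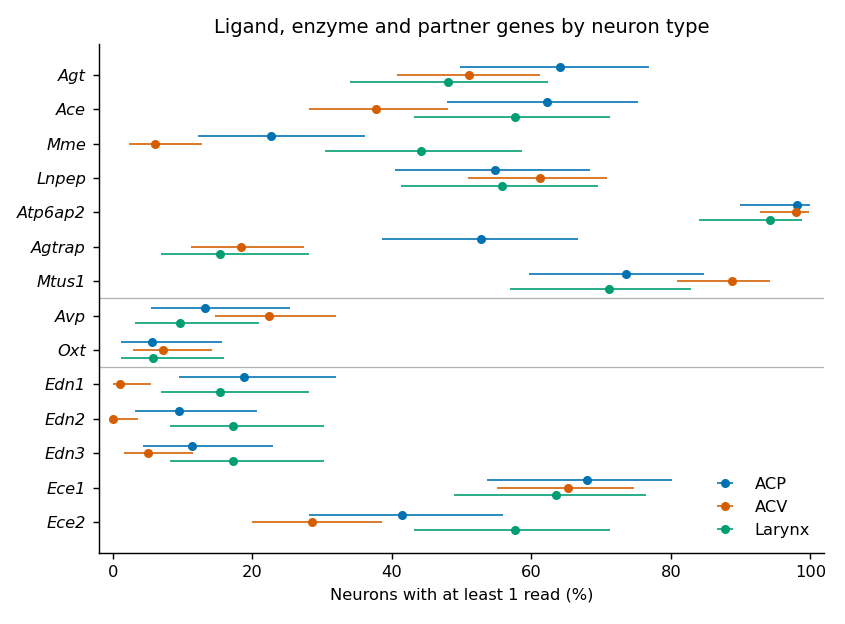
Share of neurons with at least 1 read (x axis, percent) of ligand, enzyme and partner genes of the 3 systems in ACP, ACV and Larynx neurons, with exact 95% binomial intervals for counting error only. Agtrap is at 52.8% in ACP against 18.4% in ACV and 15.4% in Larynx, and Edn1 at 18.9% in ACP against 1.02% in ACV.

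Between ACV and Larynx neurons, 4 of the 6 receptors that could be called, Agtr1a, Agtr1b, Avpr1a and Ednra, were past 2-fold higher in Larynx, a direction taken by 14% of the 13297 genes that could be called (24.4% in either). Agtr1a and Agtr1b entered that comparison only through the Larynx neurons, so the minimum share favored their direction and the count is a description. The calls of Avpr1a and Ednra rested on 1 neuron each, as given above. In ACP against Larynx, 2 of 7 were past 2-fold, Agtr2 higher in ACP and Ednra higher in Larynx, the latter direction being that of 12.5% of genes. No receptor was read in 5 ACP, 18 ACV and 11 Larynx neurons, and at least 2 in 52.8% (38.6% to 66.7%), 44.9% (34.8% to 55.3%) and 48.1% (34% to 62.4%). The highest number in 1 neuron was 5, in 3 neurons.

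The main G protein genes downstream were read in nearly all neurons. Gnaq and Gna11, whose G proteins couple the type 1 angiotensin, V1a, oxytocin and endothelin receptors to phospholipase C, were read in 100% of neurons, except for Gna11 in ACV neurons at 98%. Gnas and Gnao1 were read in 100% in all types. Gnas was 2.46-fold higher in Larynx than in ACP neurons (2.41 to 2.53), at 40.6 ± 16.8 against 16.5 ± 9.06. Of the 16 genes of this list, 15 could be called, and between ACP and ACV 1 was past 2-fold higher in each type, beside 9.87% of all genes higher in ACP and 8.63% higher in ACV. The one higher in ACV was Plcb4, a phospholipase C named after its values were seen, which stood 8.97-fold above ACP (8.68 to 9.67 with each neuron left out in turn), at 3.86 ± 2.91 against 0.430 ± 0.436. The one higher in ACP was Itpr3, which entered only through the ACP neurons. Itpr3, an inositol trisphosphate receptor that releases calcium, was most frequent in Larynx, with reads in 50% of neurons against 17% in ACP and 7.14% in ACV. Its level of 0.410 ± 0.790 there was 24.1-fold that of ACP (20.1 to 34.6) and 110-fold that of ACV (91.9 or more with each neuron left out in turn). Itpr3 entered the comparison of ACV with Larynx only through the Larynx neurons, so the latter fold is a description. Of the 15 genes, 3 were past 2-fold higher in Larynx than in ACP and 0 higher in ACP, beside 12.5% and 10.3% of all genes. Between ACV and Larynx 1 was higher in each type, beside 10.4% and 14% of all genes. Of 7 desensitization genes in the table, Rgs2 (94.3%, 92.9% and 82.7%), Rgs4, Arrb2 (83%, 85.7% and 69.2%) and Grk6 (69.8%, 77.6% and 75.0%) were the most frequent. Rgs4, which shortens signals through Gq and Gi, was past 2-fold lower in Larynx, at 0.734 ± 0.888 against 2.91 ± 2.93 in ACP and 3.30 ± 2.53 in ACV. That made ACP 3.97-fold (3.70 to 4.27) and ACV 4.50-fold (4.40 to 4.84) higher than Larynx. It was the 1 gene of the 7 past 2-fold higher in ACP or in ACV than in Larynx, beside 10.3% and 10.4% of all genes. Past 2-fold higher in Larynx were 0 against ACP and 2 against ACV, beside 12.5% and 14%. Between ACP and ACV 2 were higher in ACP and 0 in ACV, beside 9.87% and 8.63%.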

How the data were processed

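Single neurons were sequenced by Smart-seq2 with paired reads of 75 bases. Per the labels and the study's methods, the authors trimmed reads, aligned them to mm10 with STAR 2.6.1d and deposited raw read counts per gene symbol for each neuron; the program and annotation used for counting are not given in the sources used here. A second deposited table, named CPM, was not used, since its columns sum to between 242377 and 3031760. Each neuron's type was taken from the authors' deposited annotation.

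Counts were divided by the neuron's total outside Rn45s and multiplied by 10000. The ratio of mean levels between types was called past 2-fold for genes that reached a share of 10% in one or both types; a type with no read was given 3 counts over the type. Binomial and Poisson intervals were exact at 95% (SciPy 1.17.1). Each neuron was 1 sample with no mouse named, so no test was made. The ratio was also tried on simulated data. No outcome of that trial is given here, so it does not show how well the ratio works for receptors read in few neurons. Alternatives used edgeR 4.0.16 (TMM), DESeq2 1.42.0 (size factors), other minimums and subsets of neurons. The study's clustering and its test over cells were not repeated. No doublet caller was run on these hand-picked neurons. No 2 neurons had identical counts. Named genes were all 9 receptors, from each pathway list the 4 most frequent genes and those past 2-fold with a difference of 20 percentage points in share, and the 3 genes with the highest Spearman rho to each receptor read in at least 20 neurons. Receptors and lists were chosen with earlier results of these data known. Gene positions, exon lengths and sequences came from GENCODE vM21, of the same build (GRCm38).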

Additional observations from a re-analysis of the deposited data

How the results depend on the processing

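No paired analysis was possible because the labels give the neurons no replicate numbers. Scaling by TMM or DESeq2, pooling counts, leaving out neurons under 200000 counts or limiting Apoe to 900 or 1800 counts kept the number of genes past 2-fold within 1.5 times for ACP against ACV (2471), ACP against Larynx (3021) and ACV against Larynx (3240). With no minimum share these were 6209, 6745 and 7247, with a minimum of 25% 1326, 1833 and 2046, at a fold of 1.5 4603, 5534 and 5952, and at a fold of 4 764, 926 and 1003. Counting Rn45s in the totals moved the median log2 ratio over all genes to 0.58 for ACP against Larynx and 0.52 for ACV against Larynx, and the share of calls higher in the first type from 45.3% to 83% and from 42.7% to 77.5%.

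Receptors past 2-fold between ACP and ACV (3) became 1 with a minimum of 25%, 5 in neurons with at most 900 counts of Apoe and 5 at a fold of 1.5, and ranged from 3 to 5 as single neurons were left out. Between ACP and Larynx (2) they became 0, 4 and 5 in these settings, 4 with pooled counts and 1 at a fold of 4, and ranged from 2 to 4. With Rn45s counted, 3 receptors passed between ACP and Larynx, all higher in ACP. Ednra, at 0.505 times Larynx in ACP, then no longer passed. Between ACV and Larynx (4) they became 1 with a minimum of 25% and 2 at a fold of 4, and ranged from 3 to 5. With Rn45s counted they stayed at 4, but 2 of these were higher in ACV, against 0 in the main setting. Receptors read in at least 10% of Larynx neurons fell from 6 to 3 when 5 reads were required. As single neurons were left out, the ratio of ACV to Larynx ranged from 0.326 to 1.17 for Avpr1a and from 0.299 to 1.09 for Ednra, above 1 without 1 Larynx neuron each. The Apoe limit of 1800, the neurons left out in turn, the values in neurons above 900 counts of Apoe and every alternative for the number of receptors past 2-fold were chosen after seeing the data. With 53, 98 and 52 neurons, and no measure of how often a transcript present in a cell gives no read, the absence of reads sets no limit on the share of neurons that express a receptor.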
